A study of Homo sapiens with 3 samples.

Results

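The proteasome subunit genes are the genes whose symbol in the platform annotation begins with PSM, goes on with a letter from A to G and ends in a number. The rule found 44 genes among 20046 named genes, with 70 of the 47323 probes on the array. Of these 44, 40 had their brightest probe above background (detection p under 0.01) on at least 1 array and were tested, among 11768 genes tested in all. PSMA8, PSMB8, PSMB11 and PSMF1 were not well above background on any array and were not tested, and PSMA7, PSMC5, PSMD7 and PSMD13 were not analysed here.

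The cells were 293T, a human embryonic kidney line that carries the SV40 large T antigen. They were transfected with siTARBP2-1, siTARBP2-2 or siControl using a lipid reagent and collected after 48 h. Serum was at 10% for every sample. The siRNAs target TARBP2, which binds double-stranded RNA and works with DICER1 on microRNA precursors. Each of the 3 transfections gave 1 Illumina BeadChip array of total RNA, so the knockdown group held 2 arrays, 1 per siRNA, and the control group 1. The labels name the control siControl, while the series design speaks of mock-transfected cells, and nothing says whether the arrays came from separate cultures. All differences are on the log2 scale of the normalised signal, and a single siRNA against control rests on 1 array a side and has no test.

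The proteasome degrades proteins tagged with ubiquitin. Its core particle is a barrel of alpha rings, which gate the entrance, around beta rings, of which PSMB5, PSMB6 and PSMB7 carry the proteolytic sites. The regulatory particle sits on the barrel, where an ATPase ring (the PSMC subunits) unfolds the substrate and base and lid subunits (PSMD) bind and remove ubiquitin. In immune cells and under interferon gamma, PSMB8, PSMB9 and PSMB10 replace the proteolytic subunits to form the immunoproteasome, and PSME1 and PSME2 form an alternative cap. Dedicated chaperones, among them the PSMG proteins, assist the assembly.

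TARBP2 signal was 6.27 with siTARBP2-1 and 6.09 with siTARBP2-2, against 8.38 with siControl, so both knockdown arrays lay below control, by -2.12 and -2.30. Its mean difference of -2.21 ± 0.25 (SE, n = 2 arrays against 1) had the smallest p of all genes tested, but did not pass over all genes (limma adjusted p = 0.328). Raw signal averaged 680.4, 514.3 and 528.5 on the siTARBP2-1, siTARBP2-2 and siControl arrays, and 18449 to 19155 probes were above background. Of 7 markers fixed for 293T cells 6 were listed, and 5 of these (VIM, NEFL, NEFM, EYA1 and LIN28B) were above background on all 3 arrays, while PAX2 was not on any. The summed raw signal of the 6 was 20270.2 and 11613.7 on the knockdown arrays and 14398 on the control array. These sums are not normalised, and most of each was VIM, at 13190.3, 7397.6 and 9459.8. The arrays' number limits the precision of every value, and the labels name no batch.

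Proteasome genes lay close to control with both siRNAs while TARBP2 was reduced. The 40 tested genes had a median difference of -0.02 with siTARBP2-1 and 0.02 with siTARBP2-2, beside 0.00 and 0.03 over all 11768 genes. With siTARBP2-1 their differences ran from -0.47 (PSMD4) to 0.59 (PSMB9), and with siTARBP2-2 from -0.34 (PSMA6) to 0.37 (PSMD9). By the test, 0 of the 40 rose and 0 fell (limma, Benjamini-Hochberg adjusted p = 0.99991 for each), where 0% of all genes were called. At unadjusted p under 0.05 there were 0 members, beside 1.73% of all genes, and the smallest member p was 0.178 (PSMD1). With array medians set equal in place of quantile normalisation, the median of all genes moved to 0.307 with siTARBP2-1 and -0.0565 with siTARBP2-2, and the members' medians relative to it were -0.021 and 0.0298. The medians set equal were those of all 47323 probes, of which 18449 to 19155 were above background, so signal near background set that scale. The test's errors are wide: the 95% interval of a member's mean difference reached 0.573 to 0.723 to either side, which corresponds to 1.49-fold to 1.65-fold.

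Past 1.5-fold (0.585 on the log2 scale), 1 of the 40 was higher with siTARBP2-1, where 1.26% of all genes were, and 0 were lower, where 1.36% were. With siTARBP2-2, 0 were higher and 0 lower, where 5.27% and 4.88% of all genes were. By the mean of both siRNAs 0 were past it, where 2.74% of all genes were. The lone gene was PSMB9, which was above background only on the siTARBP2-1 array and is described with the immunoproteasome. Differences under 0.25 were seen in 33 of 40 members (82.5%) with siTARBP2-1 and 34 (85%) with siTARBP2-2, beside 74.6% and 58.9% of all genes. With equal array medians the count with siTARBP2-1 was 18 of 40, beside 36.8% of all genes, and with siTARBP2-2 35, beside 58.7%. The members' probes were also brighter, with a median normalised signal of 11.66 beside 8.70 over all genes, and 32 of the 40 fell in the brightest 25% of genes. In that brightest 25%, 87.9% and 74.4% of all genes differed by under 0.25 with siTARBP2-1 and siTARBP2-2, and 27 and 27 of the 32 members did. The part of signal strength in the members' small differences was not tested further.

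**Figure D1:**
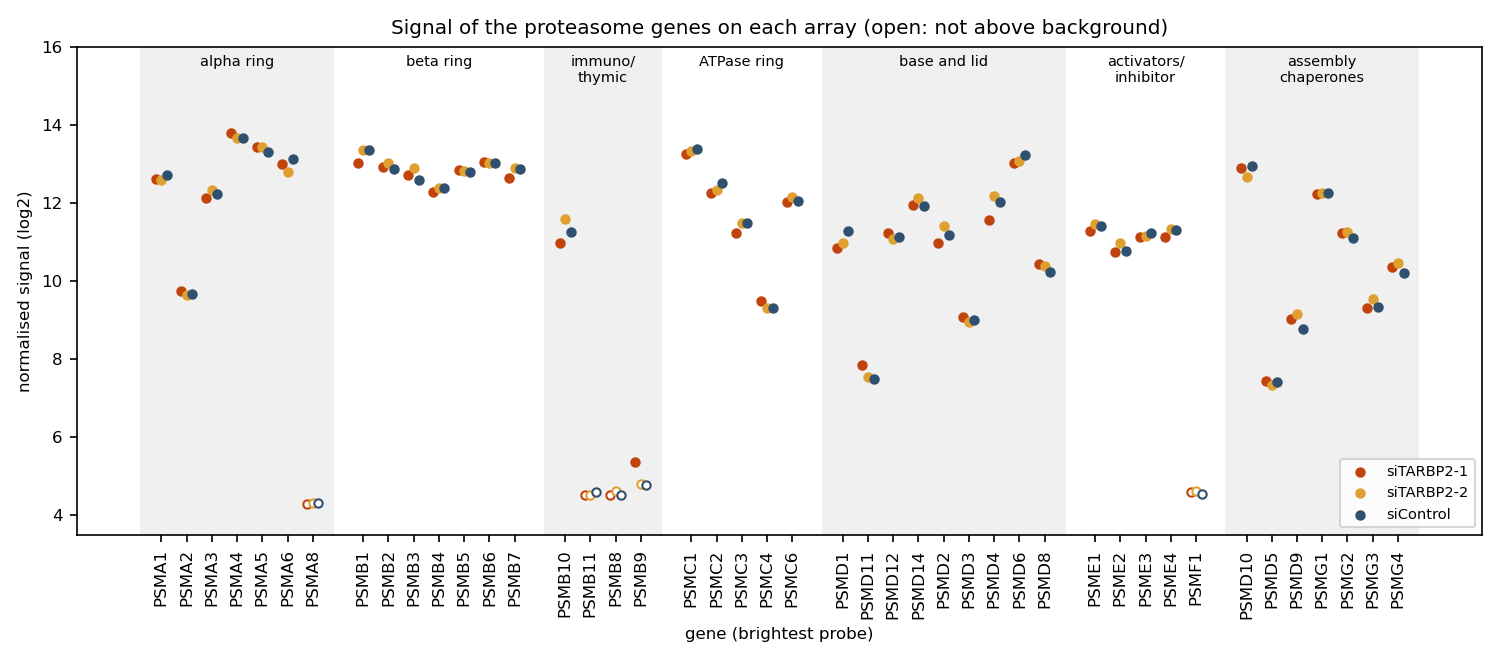
Normalised signal (log2) of the brightest probe of each of the 44 listed genes, by class, with 1 point per array; open points are not above background. The 3 arrays of a gene lie close together, and PSMA8, PSMB8, PSMB11 and PSMF1 are open on every array.

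**Figure D2:**
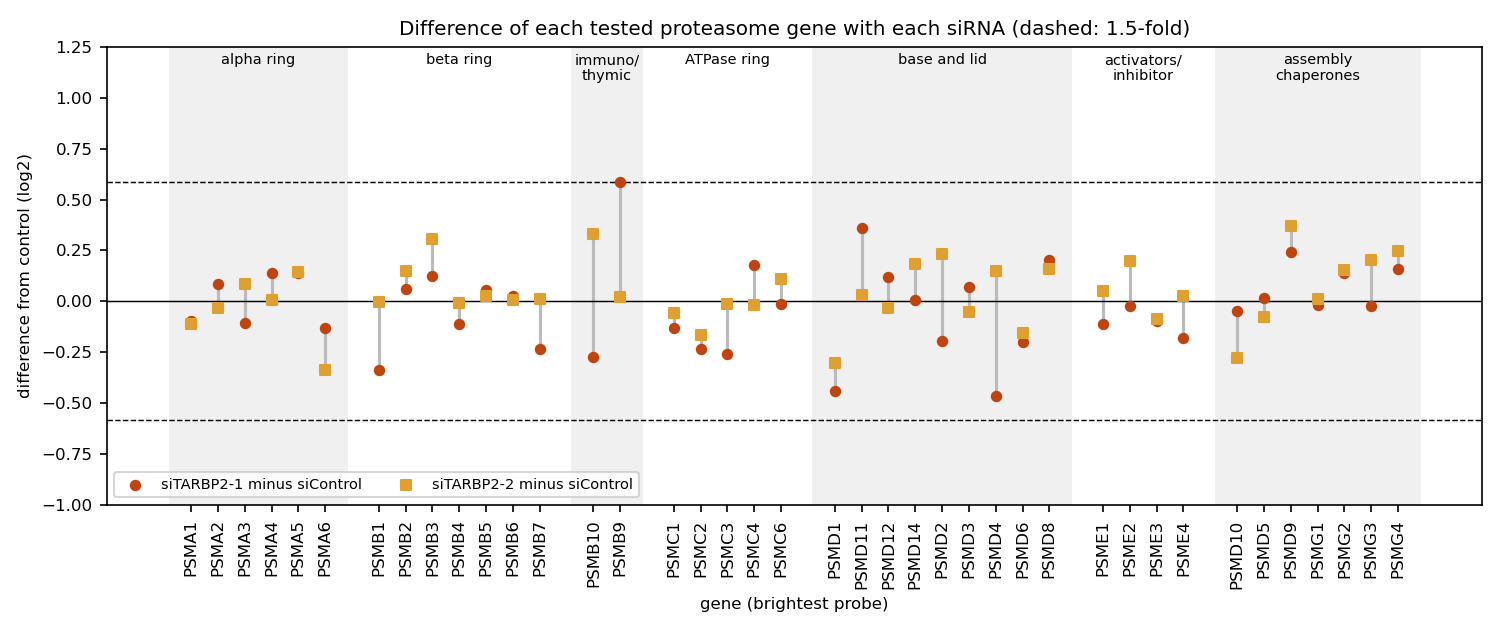
Difference from control (log2) of the 40 tested genes with siTARBP2-1 (circles) and siTARBP2-2 (squares), 1 array each against the same control array, with a grey line joining both; dashed lines mark 1.5-fold. Only PSMB9 with siTARBP2-1 reaches a dashed line, and PSMD4 and PSMB10 have the longest joining lines.

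**Figure D3:**
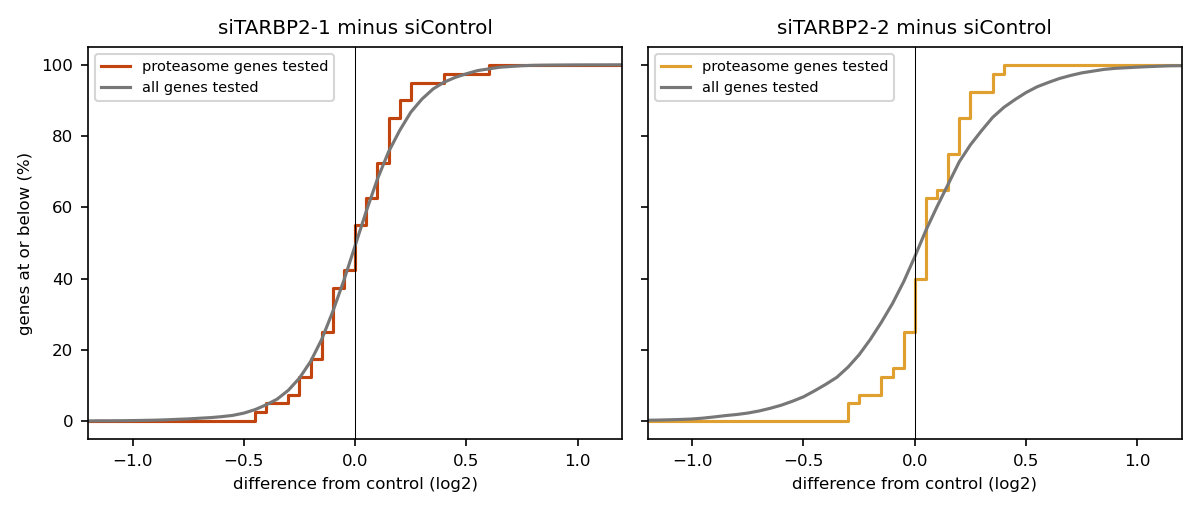
Cumulative percentage of genes at or below each difference from control (log2), for the 40 tested proteasome genes (coloured steps, in bins of 0.05) and all 11768 genes tested (grey), with siTARBP2-1 on the left and siTARBP2-2 on the right. The members' curve follows that of all genes on the left and is steeper on the right, where median absolute differences were 0.0995 for members and 0.201 for all genes.

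The promoters of the members at the ends of this range are given here because proteasome genes share an upstream regulator, NFE2L1, which binds antioxidant response elements. The 250 bases before the transcription start (RefSeq, GRCh38.p14) were searched for TGACNNNGC on either strand (GCNNNGTCA on the other). PSMD9 had the highest mean difference of the members and PSMD1 the lowest, PSMB3 the highest of the beta ring, and PSMB10 opposite signs with the siRNAs; all were picked after their values were seen. Capitals mark the matches.
PSMD9, chr12:121888540-121888789, plus strand: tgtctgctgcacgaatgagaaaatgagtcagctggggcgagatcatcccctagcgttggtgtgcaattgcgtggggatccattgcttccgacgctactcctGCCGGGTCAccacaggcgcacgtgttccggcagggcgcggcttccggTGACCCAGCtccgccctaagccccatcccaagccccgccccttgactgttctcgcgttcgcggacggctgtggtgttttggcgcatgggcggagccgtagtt
PSMB3, chr17:38752491-38752740, plus strand: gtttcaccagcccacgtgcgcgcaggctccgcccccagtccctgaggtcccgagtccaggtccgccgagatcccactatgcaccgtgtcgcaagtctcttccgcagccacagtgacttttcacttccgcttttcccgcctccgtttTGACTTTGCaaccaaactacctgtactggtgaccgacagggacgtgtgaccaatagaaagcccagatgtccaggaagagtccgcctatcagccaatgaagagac
PSMD1, chr2:231056617-231056866, plus strand: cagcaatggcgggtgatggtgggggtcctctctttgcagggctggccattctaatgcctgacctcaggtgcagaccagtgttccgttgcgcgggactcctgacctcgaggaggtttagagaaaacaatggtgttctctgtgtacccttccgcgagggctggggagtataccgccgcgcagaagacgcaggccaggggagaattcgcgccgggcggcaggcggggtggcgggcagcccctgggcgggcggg
PSMB10, chr16:67936851-67937100, minus strand: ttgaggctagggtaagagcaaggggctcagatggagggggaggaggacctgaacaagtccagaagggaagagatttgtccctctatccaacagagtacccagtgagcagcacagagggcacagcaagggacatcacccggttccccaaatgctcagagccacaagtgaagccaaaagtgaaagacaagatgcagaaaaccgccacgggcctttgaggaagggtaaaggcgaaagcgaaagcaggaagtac
PSMD9 held 2 matches, starting 149 and 102 bases before the start, and PSMB3 held 1, at 104 bases, while PSMD1 and PSMB10 held none in this window. Of the 39 listed members found in the promoter table, 12 (30.8%) held a match in at least 1 of their windows, beside 13.2% of the 27305 genes in the table. The mean differences of these 12 ran from -0.08 (PSME4) to 0.31 (PSMD9) with a median of 0.06, and those of the 23 tested members without a match from -0.37 (PSMD1) to 0.20 (PSMG4) with a median of 0.02. Both ranges overlapped and spanned 0. A match describes letters in the window and not binding.

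At the brightest probe of each gene, the alpha ring lay within 0.15 of control in 5 of 6 tested genes with either siRNA. PSMA6 was the exception, at 13.00 with siTARBP2-1 and 12.80 with siTARBP2-2, against 13.14 with siControl, a mean difference of -0.24 ± 0.26 (SE, n = 2 against 1). Its dimmer probe gave differences of -0.01 and -0.65, so both probes placed siTARBP2-2 lowest. The -0.65 is past 1.5-fold, but the counts past 1.5-fold use the brightest probe of a gene only. PSMA5 had the highest mean difference of the ring, with 13.44 and 13.44 on the knockdown arrays, against 13.30 on the control array. PSMA4 was at 13.80 and 13.67 in the knockdown, against 13.66 in the control, differences of 0.14 and 0.01. PSMA1, PSMA2 and PSMA3 had mean differences between -0.10 and 0.03. Over the ring the median was -0.01 with siTARBP2-1 and -0.01 with siTARBP2-2. PSMA8, which replaces the PSMA7 protein in the testis form of the core, was not well above background.

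Of the constitutive beta ring all 7 genes were tested, with medians of 0.02 for siTARBP2-1 and 0.01 for siTARBP2-2. The proteolytic subunits PSMB5 and PSMB6 were the flattest. PSMB5, which cleaves after hydrophobic residues and is the main target of bortezomib, was at 12.85 and 12.81 in the knockdown, against 12.79 in the control. PSMB6, with caspase-like activity, was at 13.05 and 13.03, against 13.02 in the control. Both had differences under 0.06 with either siRNA, less than the SE of 0.25. PSMB7, with trypsin-like activity, was at 12.65 with siTARBP2-1 and 12.90 with siTARBP2-2, against 12.89 with siControl. There siTARBP2-1 alone was low, by -0.23.

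Among the beta subunits without a proteolytic site, PSMB1 and PSMB3 stood at opposite ends. PSMB1 was at 13.02 and 13.35 in the knockdown, against 13.35 in the control, so the difference of -0.34 came with siTARBP2-1 and siTARBP2-2 was level with the control (0.00). PSMB3 was at 12.72 and 12.90, against 12.60 in the control, higher on both knockdown arrays with a mean of 0.21 ± 0.25 (SE, n = 2 against 1). PSMB2 and PSMB4 had mean differences of 0.10 and -0.06. Neither end passed the test (limma adjusted p = 0.99991).

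The immunoproteasome was represented by PSMB10 alone at a level above background on every array. PSMB10, the inducible counterpart of PSMB7, was at 10.98 with siTARBP2-1 and 11.59 with siTARBP2-2, against 11.26 with siControl. The control lay between the knockdown arrays, with differences of -0.28 and 0.33 and a mean of 0.03 ± 0.31 (SE, n = 2 against 1). PSMB8, the counterpart of PSMB5, had 4 probes, none above background on any array, and its brightest gave raw signals of 61.8 and 61.9 in the knockdown and 57.4 in the control (detection p 0.432, 0.257 and 0.483). PSMB9, the counterpart of PSMB6, gave raw signals of 91.5 and 66.6 in the knockdown, against 66.3 in the control, and only the siTARBP2-1 value was above background (detection p 0.00649, 0.125 and 0.130). As measured, its difference with siTARBP2-1 was 0.59, which is just past 1.5-fold, and without background correction 0 members were past it. Set against the lowest signal of any detected probe on the control array, the background-limited bound was 1.05-fold with siTARBP2-1. For siTARBP2-1 over siTARBP2-2 this bound was 0.984-fold. It is a lower bound, so a value under 1 neither shows nor excludes an increase. The same ratio for the mean of both siRNAs over control was 0.865-fold. That ratio took the siTARBP2-2 value, which was not above background, as measured, so it is not a bound. PSMB9 was tested only because its siTARBP2-1 value was above background. Its second probe gave -0.13 and -0.25 and was not above background on any array. PSMB11, the thymic subunit, was not well above background.

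Immune and endothelial cells, which hold immunoproteasome, were marked by 4 listed genes, of which PTPRC, CD3E and PECAM1 were not above background on any array and CD14 was on all 3. The summed raw signal of the 4 was 300.0 and 271.6 in the knockdown and 272.8 in the control. Of 8 listed genes of class I antigen processing, which use the peptides cut by the proteasome, 7 were tested, and 0 rose and 0 fell. Their medians were -0.01 with siTARBP2-1 and 0.29 with siTARBP2-2, beside 0.00 and 0.03 over all genes. ERAP2, an aminopeptidase that trims peptides, was at 0.19 and 0.58 above control, and TAPBP, which loads them, at 0.34 and 0.36. TAP1, a peptide transporter whose gene neighbours PSMB9, was at -0.01 and 0.29. ERAP1 was at -0.07 with siTARBP2-1 and not above background with siTARBP2-2.

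In the ATPase ring, which opens the core and threads the substrate, 4 of 5 genes were below control with each siRNA, beside 49.1% and 46% of all genes, and medians were -0.13 and -0.02. The median of the ring over both siRNAs was -0.09, and it turned to 0.00 with equal array medians, where that of all genes was 0.119. PSMC2 had the lowest mean difference, with 12.27 and 12.34 in the knockdown, against 12.50 in the control (-0.20 ± 0.25, SE, n = 2 against 1). Both knockdown arrays lay below the control. PSMC4 had the highest at its brightest probe, with 9.50 and 9.30, against 9.31 in the control, where siTARBP2-1 alone stood above. Its other probes gave 0.10 and -0.18 and, at the dimmest, -0.29 and 0.20, so the probes did not share the signs. PSMC1, whose probe signals were 13.26 and 13.33 in the knockdown, against 13.39 in the control, was below control on both arrays and at both of its probes. PSMC3 was at -0.26 with siTARBP2-1 and -0.01 with siTARBP2-2, and PSMC6 at -0.01 and 0.11.

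The base and lid held both the member with the lowest mean difference and genes above control on both knockdown arrays. PSMD1, the largest scaffold of the base, was at 10.85 with siTARBP2-1 and 10.99 with siTARBP2-2, against 11.29 with siControl. Both knockdown arrays lay below control, by -0.44 and -0.30, and the mean of -0.37 ± 0.25 (SE, n = 2 against 1) was the lowest of all 40 members. PSMD6, a lid subunit, was also below control on both arrays, by -0.20 and -0.15. PSMD11, a lid subunit linked to high proteasome activity in stem cells, was at 7.86 and 7.53, against 7.50 in the control, so siTARBP2-1 stood above by 0.36 and siTARBP2-2 by 0.03. PSMD8, a lid subunit, was above control on both arrays, by 0.21 and 0.16. PSMD14, the enzyme that removes ubiquitin chains, was level with control with siTARBP2-1 (0.00) and at 0.18 with siTARBP2-2. Medians of the 9 genes were 0.00 and 0.03, and none passed the test.

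PSMD4, a ubiquitin receptor of the base, was low on the siTARBP2-1 array alone. Its signal was 11.56 with siTARBP2-1 and 12.17 with siTARBP2-2, against 12.02 with siControl, differences of -0.47 and 0.15. Its other probes gave -0.25 and 0.09 and, at the dimmer of them, -0.16 and -0.03, so siTARBP2-1 was the lowest array at each of the 3 probes, while the sign with siTARBP2-2 was not shared. PSMD2, the other large scaffold of the base, was split the same way, at -0.19 and 0.23. PSMD3 and PSMD12, of the lid, had mean differences of 0.01 and 0.04.

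Among the caps and the inhibitor, all 4 tested genes lay within 0.20 of control with each siRNA at their brightest probe. The dimmer PSME1 probe gave 0.01 with siTARBP2-1 and -0.39 with siTARBP2-2. PSME2, of the interferon-inducible cap, was at 10.76 and 10.98 in the knockdown, against 10.78 in the control, and its partner PSME1 at 11.29 and 11.45, against 11.40. PSME3, which forms a nuclear cap, was at 11.14 and 11.15, against 11.24 in the control, the lowest mean of the class at -0.09. PSME4, a cap that acts in the degradation of acetylated histones, was at -0.18 and 0.03. PSMF1, an inhibitor of the core, was not well above background at its only listed probe, with raw signals of 65.1 and 61.7 in the knockdown and 58.8 in the control.

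The assembly chaperones had a median of 0.02 with siTARBP2-1 and 0.16 with siTARBP2-2, beside 0.00 and 0.03 over all genes. PSMD9, a chaperone of the ATPase ring, was at 9.02 with siTARBP2-1 and 9.15 with siTARBP2-2, against 8.78 with siControl. Its mean difference of 0.31 ± 0.25 (SE, n = 2 against 1) was the highest of all 40 members, and both knockdown arrays stood above control. PSMD10, gankyrin, which holds another ATPase and is known as an oncoprotein, had the lowest of the class, with 12.91 and 12.67, against 12.95 in the control. Its 3 probes gave -0.28, -0.29 and -0.42 with siTARBP2-2 and between -0.09 and -0.05 with siTARBP2-1, so siTARBP2-2 was lowest at each probe. PSMG2 and PSMG4, which help build the alpha ring, were above control with both siRNAs, PSMG2 by 0.14 and 0.16 and PSMG4 by 0.16 and 0.25. PSMG1, the partner of PSMG2, was at -0.02 and 0.01, and PSMG3, the partner of PSMG4, at -0.02 and 0.20. The other PSMG1 probe gave 0.22 with siTARBP2-1 and -0.01 with siTARBP2-2. PSMD5 was at 7.43 and 7.34, against 7.42 in the control. None of the 7 passed the test.

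**Figure D4:**
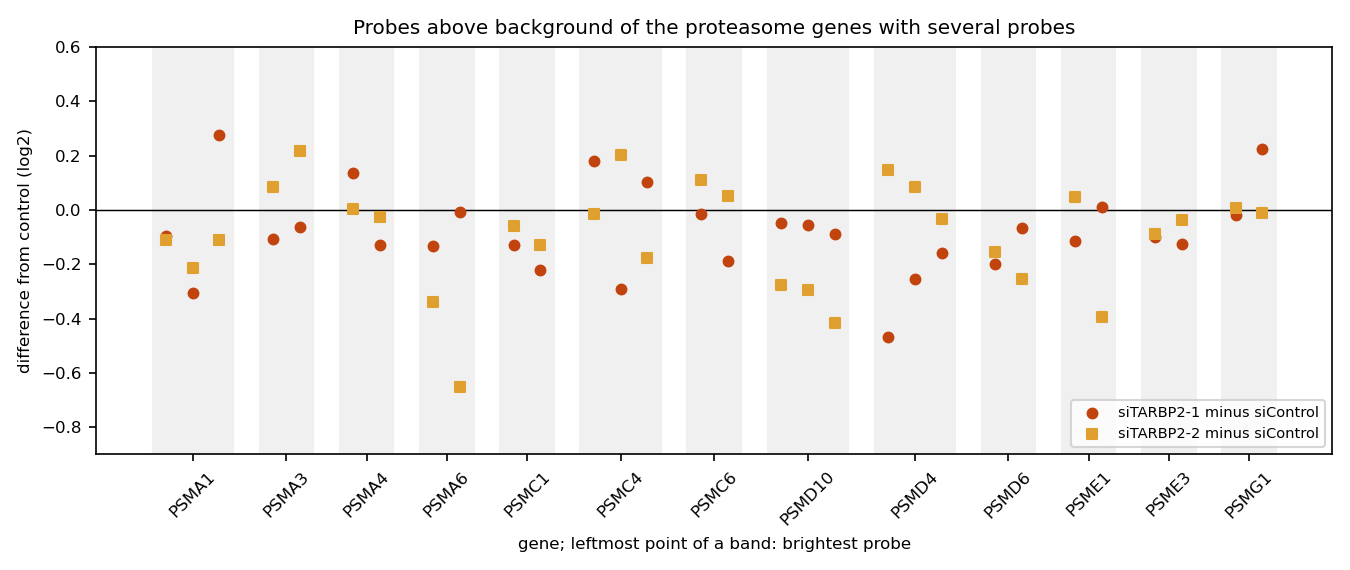
Difference from control (log2) at every probe above background of the 13 members with several such probes, with siTARBP2-1 (circles) and siTARBP2-2 (squares); each grey band is a gene and its leftmost points are the brightest probe. The 3 PSMD10 probes lie lower with siTARBP2-2 at every probe. Probes of a gene differ in sign with either or both siRNAs in PSMA1, PSMA4, PSMC4, PSMD4, PSME1 and PSMG1.

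Probes of a gene read the same RNA samples and are not replicates. For the 13 members with several probes above background, the mean differences of a gene's probes lay 0.0115 (PSME3) to 0.342 (PSMA1) apart, and in none of the 13 did these means lie more than 0.2 above control at a probe and more than 0.2 below at another. With a single siRNA they did in PSMA1, at 0.28 and -0.30 with siTARBP2-1. The 0.28 came from a probe above background on that array alone (detection p 0.00649, against 0.0584 with siTARBP2-2 and 0.0299 with siControl). The PSMA1 spread of 0.342 also includes that probe. The other PSMA1 probes gave -0.30 and -0.10 with siTARBP2-1.

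Directly compared, the siRNA arrays differed past 1.5-fold in PSMD4 and PSMB10, both lower with siTARBP2-1 than with siTARBP2-2. With equal array medians 0 were lower and 3 higher. In that setting the medians of all genes against control were 0.307 with siTARBP2-1 and -0.0565 with siTARBP2-2. The share of all genes past 1.5-fold was not counted there. With quantile normalisation, PSMD4 and PSMB10 were 2 of 40 members, where 5.01% of all genes were lower by that much. The count higher was 0, where 5.12% of all genes were. The differences were -0.61 for PSMD4 and -0.61 for PSMB10, or 1.53-fold and 1.52-fold higher with siTARBP2-2. PSMB9 came next in size at 0.56, with only the siTARBP2-1 value above background. Over the 40 members the median of siTARBP2-1 minus siTARBP2-2 was -0.07, beside -0.03 over all genes, and its median size was 0.134, beside 0.216.

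The authors' deposited table of log fold changes, whose base its header does not state, listed 50 of 50 accessions of the members' probes, covering all 44 genes. In the authors' deposited table these ran from -0.37 (PSMD1) to 0.24 (PSMD9), with a median of 0.01. In that table the authors' up-regulated class held 2 of the 50, PSMB3 at 0.23 and PSMD9 at 0.24, beside 2.61% of its 39747 rows. Every value of 0.2 or more in the authors' deposited table was in this class, and PSMG4 stood just under it at 0.1997. PSMD1 and PSMD9 also had the lowest and highest mean difference in the normalised signals used here, which come from the same arrays. PSMB9, at 0.30 here, stood at 0.0077 in the authors' deposited table. These are unlike units, since that table gives a single value for PSMB9, while 0.30 is the brighter of its 2 probes. The other probe gave a mean difference of -0.19 here. From the authors' normalised signals, the brightest PSMB9 probe gave 0.143.

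Of the other parts and partners of the proteasome, 13 were tested, and 0 rose and 0 fell, with medians of 0.01 and -0.01. TXNL1, a thioredoxin-like protein bound to the regulatory particle, was at -0.34 with siTARBP2-1 and -0.07 with siTARBP2-2. POMP, the maturation factor of the core, was at -0.18 and -0.04, ZFAND5, which stimulates the proteasome, at -0.22 and 0.00, and ECPAS, an adaptor, at 0.03 and 0.15. Of the genes that control proteasome transcription 7 were tested and none passed, with medians of 0.09 and 0.10. NFE2L1 itself was at -0.08 and 0.33, its relative NFE2L3 at 0.19 and 0.43, their partner MAFG at 0.09 and 0.34, and DDI2, the protease that activates NFE2L1, at 0.09 and 0.10.

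Ubiquitin supply and shuttle genes included the widest difference of the surrounding pathway. RAD23B, which carries ubiquitin-tagged proteins to the proteasome, was at 10.29 with siTARBP2-1 and 9.06 with siTARBP2-2, against 9.99 with siControl. It was 0.30 above control with siTARBP2-1 and -0.92 with siTARBP2-2, so the control lay between the knockdown arrays. It was the only 1 of the 10 tested genes past 1.5-fold lower with siTARBP2-2, where 4.88% of all genes were. UBA6, a ubiquitin activating enzyme, was at 0.11 and -0.41, UBQLN4, a shuttle factor, at 0.05 and -0.37, and VCP, the segregase that extracts ubiquitin-tagged proteins, at -0.18 and -0.14. By the test 0 of the 10 rose and 0 fell (limma adjusted p = 0.99991 for each).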

How the data were processed

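Signal was measured on 3 Illumina BeadChip arrays. Per the file headers, the deposited non-normalized table pairs each array's probe intensity with a detection p-value. Each p was tied to the signal column on its left (Spearman's rho -0.984 to -0.987 with it). A second deposited table holds intensity values that share 1 distribution. The authors' deposited log fold changes, treated as log2, come with a 0 or 1 class. Per the submitters' processing notes lumi was used; its settings are not stated there. The columns belonged to these samples alone.

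Signals were background corrected from the detection p-values (offset 16), quantile normalised and log2 transformed with neqc of limma 3.58.1 (R 4.3.3). Quantile normalisation hides a change that moves most transcripts together. Gene names came from the platform annotation (30113 of 47323 with 1 symbol). The brightest probe stood for a gene and was kept if detected (p under 0.01) on any array. Limma (lmFit, eBayes, two-sided) compared 2 arrays with 1 over 11768 genes, with Benjamini-Hochberg adjustment at 0.05, 1 residual and 6.78 prior degrees of freedom. Each SE is the moderated one. P-values hold no spread between control arrays, and any spread between the knockdown arrays may be technical. The test was checked on simulated arrays drawn from its own fitted variance model. Only differences of 2 and 4 log2 either way were planted, so the check says nothing on differences of the members' size.

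Named with values on each array are the proteolytic subunits and their counterparts, the highest and lowest member of each class, members past 1.5-fold, the 3 brightest and 3 dimmest, and up to 4 genes per surrounding list. Other genes are named as members or chosen after their values were seen. Members, classes and lists were chosen with earlier results of these data known. Alternatives covered background correction, offset, scaling, the authors' values, probe choice, filters and the variance prior.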

Additional observations from a re-analysis of the deposited data

How the results depend on the processing

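No member passed the test under any of the 9 settings run (limma adjusted p of 0.9998 or more). Over all genes the count of calls was 1, TARBP2, with equal array medians (adjusted p = 0.0382) and 1 with a trend and robust variance prior (0.00423), against 0 otherwise. Equal array medians put the median of all genes at 0.307 with siTARBP2-1 and -0.0565 with siTARBP2-2, against 0.00372 and 0.025 with quantile normalisation, and 18 of 40 members lay within 0.25 of control with siTARBP2-1, against 33. There the members' medians were 0.286, -0.0268 and, for both, 0.133, which is -0.021 and 0.0298 relative to all genes. In that setting 2 members were past 1.5-fold higher with siTARBP2-1, and of the siRNAs compared directly 3 were higher and 0 lower with siTARBP2-1. The shares of all genes past 1.5-fold were not counted there, and the medians of all genes had moved in the same directions. Equal array medians turned the sign of PSMA1 (0.0197), PSMA3 (0.109), PSMB4 (0.0518), PSMB7 (0.0271), PSMC1 (0.0049) and PSMD5 (0.0833). They also turned that of PSME1 (0.0797), PSME3 (0.0141), PSME4 (0.0370), PSMG1 (0.117), POMP (0.0311) and ZFAND5 (0.0215). Each of these values was still below 0.119, the median of the mean difference over all genes in that setting. The mean of detected probes turned PSMA3 (0.0331), PSMA4 (-0.0029), PSMC6 (-0.0097) and PSMG1 (0.0510), and left 1 member lower with siTARBP2-1 than with siTARBP2-2. The count higher with siTARBP2-1, which is PSMB9, was 0 without background correction, with offset 50, with the authors' deposited values and with detection on all 3 arrays, which removes PSMB9. Without each knockdown array in turn, members past 1.5-fold numbered 0 to 1 and the members' median was -0.0200 to 0.0182. No paired analysis was possible because the groups share only replicate number 1.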
